A study of Mus musculus with 14 samples.

Results

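The replication-dependent histone genes encode the bulk of the core histones H2A, H2B, H3 and H4 and of the linker histone H1. They were taken as every gene of the count table whose symbol starts with Hist1h, Hist2h, Hist3h or Hist4h and that reached at least 10 counts in at least 4 of the 14 samples, a rule that uses depth but no difference between groups. It kept 61 of 70 such genes, among 52550 genes in the table. By class these were 6 H1, 16 H2A, 17 H2B, 10 H3 and 12 H4 genes. The Hist1 cluster on chromosome 13 held 53 of them, the Hist2 cluster on chromosome 3 held 5, and Hist3 genes on chromosome 11 and the Hist4 gene on chromosome 6 made up the other 3. Protein-coding genes numbered 58, and Hist1h2aj, Hist1h2al and Hist3h2bb-ps are annotated as pseudogenes.

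RNA-seq was performed on HSPC-enriched bone marrow cells, that is cells enriched for hematopoietic stem and progenitor cells, from femur and tibiae of WT mice (4 samples) and of Mir139KO mice (4 samples), and on MLL-AF9 cells (6 samples). All mice were C57BL/6 and 8 to 20 weeks old. The MLL-AF9 cells were WT HSPCs expanded overnight in StemPro-34 medium with SCF, GM-CSF, IL-6 and IL-3, transduced with the retrovirus pMSCV-MLL-AF9-neo (3 samples, neo 1 to neo 3) or pMSCV-MLL-AF9-puro (3 samples, puro 1 to puro 3), selected on Neomycin or Puromycin, and re-plated repeatedly in MethoCult. For the HSPC samples the protocol allows lysis at once or after expansion and does not say which was done for each. Culture, cytokines, drug selection and the fusion gene therefore differ together between the MLL-AF9 cells and the HSPCs, and their effects on a histone gene cannot be told apart. The labels do not say whether samples of a group came from separate mice or transductions, so p-values measure the spread between these samples, which may be technical. Mir139, the deleted gene, is listed at 0 counts in all 14 libraries, so these counts do not check the knockout.

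Replication-dependent histone genes are switched on together when a cell copies its DNA, because new DNA needs new nucleosomes. Most are short, have no introns and give messenger RNAs without a poly(A) tail. These mRNAs end instead in a short stem-loop, which the stem-loop binding protein SLBP holds during 3′ processing, export and translation. NPAT, in nuclear bodies at the histone clusters, drives their transcription. The libraries were made from total RNA after removal of ribosomal RNA, without selection for poly(A), so the mRNAs that end in a stem-loop could be counted.

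The stem-loop and the promoters are shown first, because they are what the genes share by sequence. Annotated transcripts were searched for a 16-base stem-loop of 6 paired bases on each side of a 4-base loop, starting with GG and with TT at the start of the loop. It was found in 39 of the 61 genes and in 0.572% of 17297 other genes with the same depth. Of the 22 genes without a match, 12 have annotated transcripts that stop less than 20 bases after the coding end, and the 3 pseudogenes have no annotated coding end. The 6 forms of the stem-loop are given below, each in the member with its coordinates in GRCm38, with the stem-loop in capitals and the bases on either side in lower case. They are written as in the annotated transcripts, with T in place of U.
Hist1h1c (chr13:23739507-23739532, plus strand): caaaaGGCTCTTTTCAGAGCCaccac
Hist1h2bb (chr13:23747198-23747223, plus strand): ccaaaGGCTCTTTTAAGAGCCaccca
Hist2h2ac (chr3:96220413-96220438, minus strand): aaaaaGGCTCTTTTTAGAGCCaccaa
Hist1h4h (chr13:23531453-23531478, plus strand): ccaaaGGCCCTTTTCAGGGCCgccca
Hist2h4 (chr3:96262934-96262959, minus strand): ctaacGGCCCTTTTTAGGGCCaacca
Hist1h4j (chr13:21735432-21735457, plus strand): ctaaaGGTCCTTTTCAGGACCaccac
The first form occurred in 22 genes of the H1, H2A, H2B and H3 classes. The second occurred in 6 genes, and the third in Hist2h2ac alone. The 3 forms with a GGCCC or GGTCC arm were found in H4 genes only, the first of them in 7 genes.

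RefSeq promoter windows in GRCm38.p6, from 250 bases before to 50 after the start, were matched for 53 of the 61 genes. Both strands were searched for TATAAA (the TATA box), CCAAT (the CCAAT box), ATTTGCAT (the octamer bound by OCT1), AAACACA (the element of H1 promoters) and GGTCCG (a core of the H4 element bound by HINFP). CCAAT was in all H1, H2A, H2B and H3 windows (6, 14, 14 and 8), against 3 of 11 windows of H4 genes and 37.8% of 26963 windows of other genes. AAACACA was in 5 of 6 H1 windows and 7.12% of windows of other genes. GGTCCG was in 10 of 11 H4 windows, against 8.36% elsewhere. ATTTGCAT was in 5 of 14 H2A and 4 of 14 H2B windows and in 1.71% of windows of other genes, and TATAAA in 32 of 53 against 14.1%. In 9 pairs of an H2A and an H2B gene on opposite strands the 2 windows overlapped, by 263 bases for Hist1h2ak and Hist1h2bn. The 200 bases before the start are printed for 1 gene of each pattern, with the searched letters on either strand in capitals.
Hist1h1b (chr13:21780626-21780825, minus strand): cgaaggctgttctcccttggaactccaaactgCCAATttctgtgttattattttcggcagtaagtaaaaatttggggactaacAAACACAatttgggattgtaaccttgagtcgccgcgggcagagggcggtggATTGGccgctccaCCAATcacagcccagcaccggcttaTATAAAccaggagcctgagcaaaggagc
Hist1h4k (chr13:21750554-21750753, minus strand): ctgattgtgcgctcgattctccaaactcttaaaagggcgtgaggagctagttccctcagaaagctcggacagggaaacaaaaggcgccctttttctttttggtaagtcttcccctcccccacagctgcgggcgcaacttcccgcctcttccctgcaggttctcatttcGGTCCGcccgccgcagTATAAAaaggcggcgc
Hist1h2bb (chr13:23746534-23746733, plus strand): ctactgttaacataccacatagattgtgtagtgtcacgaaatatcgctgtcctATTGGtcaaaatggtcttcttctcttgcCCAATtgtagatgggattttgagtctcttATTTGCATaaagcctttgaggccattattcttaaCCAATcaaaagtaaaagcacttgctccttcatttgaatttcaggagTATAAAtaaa
Hist1h2bn (chr13:21753876-21754075, plus strand): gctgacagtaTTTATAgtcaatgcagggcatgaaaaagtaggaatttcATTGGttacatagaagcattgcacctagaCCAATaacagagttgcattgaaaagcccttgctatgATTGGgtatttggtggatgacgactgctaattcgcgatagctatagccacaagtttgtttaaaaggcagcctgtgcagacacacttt
A match describes these letters in this window and is not evidence that a factor binds there.

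Libraries held 35016668 to 45877994 counts. In 4 of the 8 HSPC libraries (WT HSPC 3 and 4, Mir139KO HSPC 1 and 4) a single noncoding RNA gene, Gm26917, took 32.7% to 35.4% of all counts. It took 17.0% to 21.9% in the other 4 HSPC libraries, and 7.55% to 10.4% in the MLL-AF9 cells. Levels are given as CPM, a gene's counts scaled to the size of its library after multiplying that size by a TMM factor (0.615 to 1.39). The replicates puro 1 and puro 3 were the most alike of the MLL-AF9 libraries, at a chi-square of 9.13 per degree of freedom over genes, which is above sampling noise. Marker genes of HSPCs summed to 366 to 551 CPM in the HSPC libraries and 43.1 to 119 CPM in the MLL-AF9 cells, and Hoxa9, Hoxa10 and Meis1, known targets of MLL fusions, to 18.5 to 37.9 and 311 to 1176 CPM. Markers of other cells moved with these groups. All 6 B cell genes were lower in MLL-AF9 cells than in WT HSPCs (summed, 1609 to 6075 CPM in HSPC libraries and 9.86 to 30.3 CPM in the cultures), as were all 6 T and NK cell genes (86.9 to 179 and 2.43 to 11.9 CPM, with Gzma at 0 in every culture), 6 of 7 erythroid genes tested (715 to 1283 and 56.7 to 208 CPM, with Alas2 at 0 in all libraries) and 4 of 8 granulocyte genes (4849 to 19730 and 2202 to 3417 CPM). In such bulk samples fewer cells of a type and less RNA per cell cannot be told apart, and the part of these other cells in the histone results was not tested.

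Histone transcripts were far more abundant in HSPCs than in MLL-AF9 cells. The 61 genes summed to 20776, 20150, 65187 and 74800 CPM in WT HSPC 1 to 4. They summed to 90245, 30043, 27862 and 68073 CPM in Mir139KO HSPC 1 to 4. In the MLL-AF9 cells the sum was 1987, 6742 and 5966 CPM in neo 1 to 3 and 1473, 7155 and 1459 CPM in puro 1 to 3. The highest culture was thus below the lowest HSPC library. The H4 genes had the largest sum, at 13650 ± 8402 CPM (SD, n = 4) in WT HSPCs and 1186 ± 766 CPM (n = 6) in MLL-AF9 cells, followed by H1 at 11248 ± 7465 and 1060 ± 650 CPM. The H2A genes had the smallest, at 3217 ± 2014 and 292 ± 220 CPM. Every H2A gene kept shares exonic bases with other annotated genes, from 9.91% to 68.2% of them, and no H3 or H4 gene kept does. Reads there may have been dropped, and the part of this in the order of the classes was not tested. Before scaling, the 61 genes took 2.21% to 5.55% of all counts in HSPC libraries and 0.200% to 0.841% in MLL-AF9 libraries. Within the HSPCs, the 4 libraries with a high Gm26917 share had the 4 highest sums in both genotypes.

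**Figure D1:**
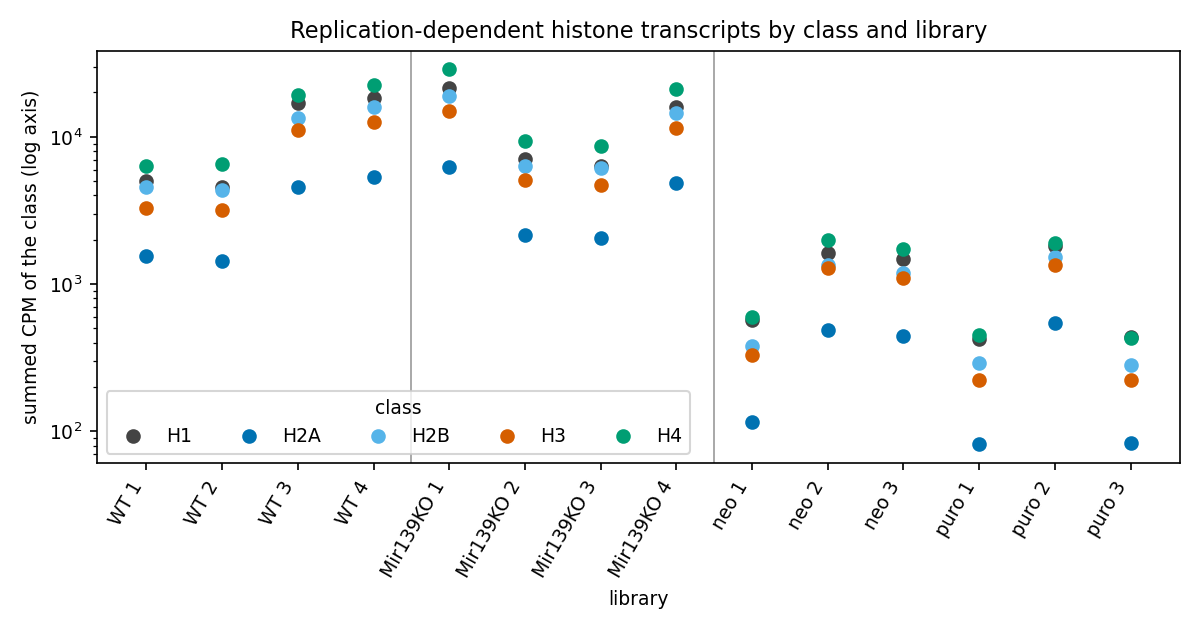
Summed CPM (log axis) of the H1, H2A, H2B, H3 and H4 genes in each of the 14 libraries, with 1 point per class and vertical lines between WT HSPCs, Mir139KO HSPCs and MLL-AF9 cultures. Every MLL-AF9 library lay below every HSPC library for each class.

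To determine which histone genes differed between the cultured MLL-AF9 cells and the HSPC-enriched marrow cells, MLL-AF9 cells were compared with WT HSPCs. This used edgeR's quasi-likelihood test across all genes with Benjamini-Hochberg adjustment. All 60 genes tested were lower in MLL-AF9 cells and 0 were higher, where 29.4% of all 17077 genes tested were called lower and 32.8% higher. The 61st, the pseudogene Hist1h2al, was too low to test. Of the 60, 4 (Hist1h1t, Hist1h2aj, Hist1h2ap and Hist3h2ba) passed the filter on low counts only through the HSPC libraries, where they were high, so their fall was favoured by the filter. The other 56 reached 10 counts in at least 4 cultures and were all called lower, against 25.6% of the 15681 genes that did so, a restriction chosen after seeing the data. For all 60 genes every culture was below every WT library, which held for 24.4% of all genes. The median log2 fold change of the 60 genes was -3.50, with a range of -7.42 to -1.76, whereas the median of all genes was 0.14. DESeq2 and limma-voom also called all 60 lower. The classes lay close together, with median log2 fold changes of -3.50 for H1, -3.48 for H2A, -3.61 for H2B, -3.38 for H3 and -3.51 for H4. Genes with and without a stem-loop match had medians of -3.50 and -3.50. Many genes without a match have annotated transcripts that stop near the coding end, so this split cannot compare genes that have a stem-loop with genes that lack it.

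Histone genes are short and rich in GC, with a median exonic length of 539 bases and GC content of 57.8%, against 3675 bases and 49.7% in the other genes. With an offset for GC content and length in each library the median log2 fold change was -1.99 and 55 of the 60 genes were called lower. Against the 2 WT libraries with a low Gm26917 share alone it was -2.43, with 54 called, and against the 2 with a high share it was -4.22, with 61 called of 61 tested. The shares of all genes called above, 29.4% lower and 32.8% higher, belong to the fit without the offset and with all WT libraries. Those of the fits in this paragraph are not given here, so their counts of histone genes cannot be set against all genes.

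**Figure D2:**
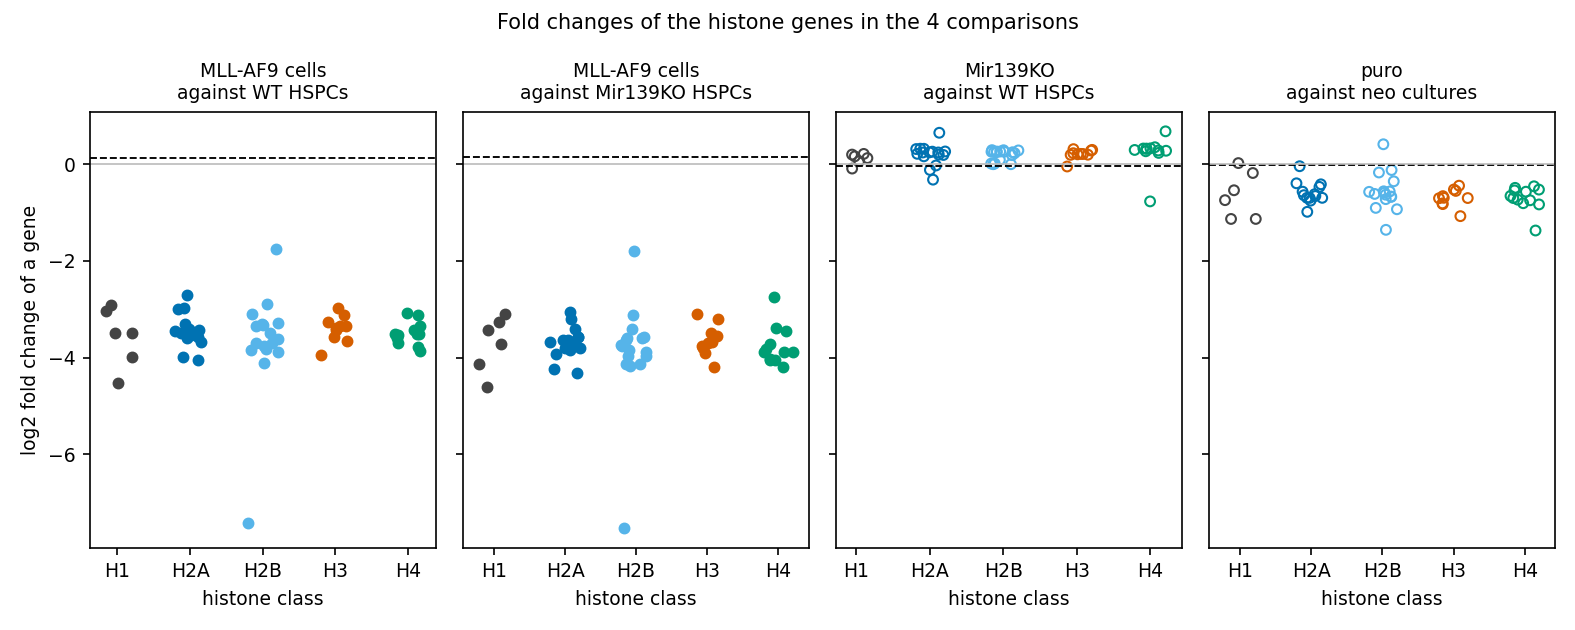
Log2 fold change of each tested histone gene by class in the 4 comparisons. Filled points passed an adjusted p of 0.05, open points did not, and the dashed line is the median of all genes tested. All 60 genes lay below 0 and were called in both comparisons of MLL-AF9 cells with HSPCs, and none was called in the other 2.

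The linker histones bind DNA between nucleosomes, and their 6 genes changed by between -4.52 and -2.91 on the log2 scale. Hist1h1a (ENSMUSG00000049539, chromosome 13, 23763666 to 23764406 in GRCm38) was at 834, 750, 2771 and 3102 CPM in the WT HSPCs, and at 22.1 to 193 CPM with a median of 67.8 in the MLL-AF9 cells. No culture reached a WT library. Its log2 fold change was -4.52 ± 0.69 (SE; edgeR adjusted p = 0.000194), the second largest fall among the 60 genes. Hist1h1b was at 815, 814, 3002 and 3357 CPM in WT HSPCs and 27.1 to 265 CPM with a median of 112 in MLL-AF9 cells, a change of -4.00 ± 0.77. Hist1h1c was at 1282, 1103, 4183 and 4571 CPM in WT HSPCs and at 180 to 623 CPM with a median of 318 in the cultures, a change of -3.03 ± 0.51. Both groups were again apart. Hist1h1d and Hist1h1e changed by -3.50 ± 0.60 and -2.91 ± 0.52. Hist1h1t, the H1 gene of the testis, passed the filter on low counts only through the HSPC libraries, which favoured its fall. It was at 0.991 to 4.57 CPM in WT HSPCs and 0.101 to 0.509 CPM in MLL-AF9 cells, a change of -3.50 ± 0.57. The adjusted p of these 5 genes lay between 0.00032 and 0.000864. Hist1h1a made up 3.41% to 4.25% of all histone CPM in the HSPC libraries and 1.11% to 2.70% in the cultures.

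Among the core histones the order of the genes was much the same in each group. Per kilobase of exon, Hist1h4k was the highest of the 61 genes in all 3 groups, at a mean of 4715 CPM per kb in WT HSPCs, 5851 in Mir139KO HSPCs and 422 in MLL-AF9 cells. Hist1h4h followed in both HSPC groups, at 4309 and 5437 CPM per kb. The annotated transcripts of Hist1h4k and of Hist1h2bn, the highest H2B gene, stop at the coding end, so the length they were divided by leaves out the stem-loop. Across the 61 genes, Spearman's rho between mean levels per kb was 0.995 for WT and Mir139KO HSPCs and 0.978 for WT HSPCs and MLL-AF9 cells. This describes genes that share libraries and lengths. Of the 10 highest genes in WT HSPCs, 10 were among the 10 highest in Mir139KO HSPCs and 8 in MLL-AF9 cells, the exceptions being Hist1h1a and Hist1h1b, which ranked 22 and 13 there. Hist1h1c, ranked 12 in WT HSPCs, ranked 7 in the cultures. The 10 highest genes of each library held 45.9% to 48.0% of histone CPM in the HSPC libraries, 47.8% to 49.0% in neo 2, neo 3 and puro 2, and 56.2% to 58.2% in the other cultures.

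Hist1h4k (ENSMUSG00000064288, chromosome 13, 21750194 to 21750505) was at 689, 712, 2038 and 2445 CPM in WT HSPCs and at 36.2 to 234 CPM in MLL-AF9 cells, a log2 fold change of -3.50 ± 0.62 (SE; edgeR adjusted p = 0.000536). Hist1h4h changed by -3.71 ± 0.55. In the H2B class, Hist1h2bn was at 686, 633, 2042 and 2407 CPM in WT HSPCs and 34.3 to 180 CPM in the cultures, and Hist1h2bb at 715, 694, 2097 and 2491 CPM and 42.7 to 201 CPM. Their changes were -3.85 ± 0.62 and -3.69 ± 0.57. Hist1h2ak, which shares its promoter window with Hist1h2bn, changed by -3.42 ± 0.62, and Hist1h2ab by -3.69 ± 0.61. Of the other genes whose stem-loop is printed, Hist1h4j changed by -3.53, Hist2h4 by -3.86 and Hist2h2ac by -3.58. In the H3 class Hist1h3c changed by -3.36 ± 0.65 and Hist1h3e by -2.97 ± 0.57. The adjusted p of these 11 genes lay between 0.000166 and 0.000904. Each was lower in all 6 cultures than in all 4 WT HSPC libraries.

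Hist3h2ba and Hist2h2be, both H2B genes, stood at the ends of the range. Hist3h2ba (ENSMUSG00000056895, chromosome 11, 58948920 to 58949533 in GRCm38) was at 23.0, 14, 43.9 and 66.2 CPM in WT HSPCs and at 57.4, 22.9, 17.5 and 60.3 CPM in Mir139KO HSPCs. In the MLL-AF9 cells it was at 0.019 to 0.512 CPM with a median of 0.119, from 1 to 26 counts a library, so that every culture was far below every HSPC library. The log2 fold change was -7.42 ± 0.79 (SE; edgeR adjusted p = 1.93e-05), a fitted 171-fold difference. Hist3h2ba passed the filter on low counts only through the HSPC libraries, so its fall was favoured by the filter. The pseudogene Hist3h2bb-ps, the other Hist3 gene kept, changed by -4.11 ± 0.76, and the H2A genes Hist1h2af and Hist2h2ab by -4.06 ± 0.72 and -4.00 ± 0.56. At the other end, Hist2h2be (ENSMUSG00000068854, chromosome 3, 96221119 to 96223738), a single-exon gene of 2620 bases with no stem-loop match, was at 9.35, 10.0, 10.1 and 10.4 CPM in WT HSPCs and at 2.45 to 3.72 CPM in MLL-AF9 cells. Its change of -1.76 ± 0.27 (SE; adjusted p = 0.000194) was the smallest among the 60 genes, followed by Hist1h2ac at -2.72. The 8 HSPC libraries lay between 9.35 and 10.8 CPM for this gene.

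**Figure D3:**
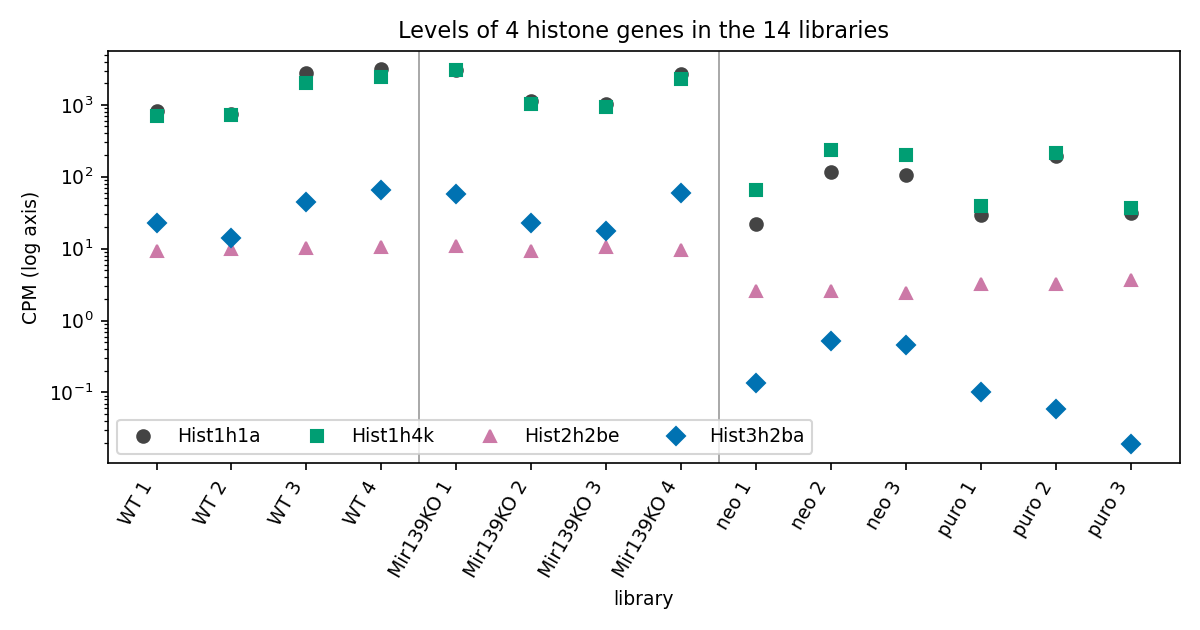
CPM (log axis) of Hist1h1a, Hist1h4k, Hist2h2be and Hist3h2ba in each of the 14 libraries, with vertical lines between the groups. Hist2h2be was near 10 CPM in every HSPC library and at 2.45 to 3.72 CPM in the cultures, while Hist3h2ba was below 1 CPM in all 6 cultures.

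Set against Mir139KO HSPCs, the same MLL-AF9 samples gave 60 of 60 histone genes lower and 0 higher, where 31.9% of 16953 genes were called lower and 37.3% higher, with a median log2 fold change of -3.74 (all genes, 0.16). With the offset for GC content and length it was -2.17, with 56 called. The share of all genes called in the fit with the offset is not given here. Again 4 of the 60 genes (Hist1h1t, Hist1h2aj, Hist1h2ap and Hist3h2ba) passed the filter on low counts only through the HSPC libraries. Their fall was therefore favoured by the filter here too. The 5 largest falls were those of Hist3h2ba (-7.53 ± 0.75), Hist1h1a (-4.60 ± 0.64), Hist2h2ab (-4.33 ± 0.51), Hist1h2af (-4.24 ± 0.70) and Hist2h4 (-4.21 ± 0.57). Hist2h2be again changed least, by -1.79 ± 0.24. For 59 of the 60 genes every culture was below every Mir139KO library, which held for 28.2% of all genes, and the exception was Hist1h4m. Its call was lost with the offset for GC content, at an edgeR adjusted p of 0.0599.

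Whether loss of Mir139 alone alters these genes was examined in Mir139KO against WT HSPCs. By edgeR's quasi-likelihood test, 0 of the 61 histone genes were called in either direction and 0 had an unadjusted p under 0.05, against 0% and 0.571% of all 15056 genes tested. The genotypes overlapped for all 61, as they did for all but 0.478% of genes. DESeq2 and limma-voom called 0 of the 61 genes too. The log2 fold change was above 0 for 55 genes and below 0 for 6, with a median of 0.25 (all genes, -0.03) and a range of -0.77 for Hist1h4m to 0.68 for Hist1h4n. The direction rested on single libraries. The median was -0.10 without Mir139KO HSPC 1, -0.01 without WT HSPC 2 and -0.000129 without WT HSPC 1. Hist1h1a was at 0.07 ± 0.57, Hist1h4k at 0.30 ± 0.55 and Hist2h2be at 0.0031 ± 0.23 (log2 fold change ± SE). Within the libraries of low Gm26917 share the median was 0.50, within those of high share 0.15, and with the share as a covariate 0.33.

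Among HSPC libraries the larger split was by Gm26917 share. For 57 of the 61 genes the 4 libraries of high share were all above the 4 of low share, the exceptions being Hist1h2aj, Hist1h2al, Hist2h2be and Hist1h4m. Hist1h1a, for example, was at 2648 to 3102 CPM in the former and 750 to 1130 CPM in the latter. The share of all genes with this order of libraries was not computed, so the count of 57 does not set the histone genes apart. Each genotype had 2 libraries of either kind. The part of the Gm26917 share in the histone levels was not tested.

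The MLL-AF9 cultures also differed among themselves, in a way that crossed the vector. Puro against neo cultures gave 0 of 57 histone genes called by edgeR's quasi-likelihood test and 0 with an unadjusted p under 0.05, against 0.873% and 13.7% of 16503 genes. DESeq2 and limma-voom called 0 as well. The vectors did not overlap for 2 genes, Hist2h2be (higher in puro) and Hist2h3c2 (lower in puro), against 19.9% of all genes. The median log2 fold change was -0.65 (all genes, -0.02), with 55 of 57 genes below 0, and it ranged from -1.92 to -0.25 when single cultures were left out. The median of -1.92 was that without puro 2, and in that fit the H4 gene Hist1h4i was called lower in puro (log2 fold change -1.48, edgeR adjusted p = 0.0377). For 57 of the 61 genes neo 2, neo 3 and puro 2 were the 3 highest cultures. The exceptions were Hist1h2al, Hist3h2ba, Hist2h2be and Hist2h3c2. These 3 cultures were picked as those with the highest sums of the same 61 genes, so the count was favoured by that choice. The share of all genes with this order was not computed. The highest culture exceeded the lowest 6.40-fold in the median of 59 genes. Hist1h4k was at 64.5, 234 and 202 CPM in neo 1 to 3 and at 39.3, 214 and 36.2 CPM in puro 1 to 3. Hist2h2be was at 2.61, 2.58 and 2.45 CPM and at 3.28, 3.22 and 3.72 CPM, within 1.52-fold over all 6. The H1 genes made up 28.5% to 29.9% of histone CPM in neo 1, puro 1 and puro 3, and 24.0% to 25.5% in the other 3 cultures.

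Genes that act with the histone genes were read from lists of known function. Of 17 genes for histone gene transcription and mRNA processing, 3 were higher and 6 lower in MLL-AF9 cells than in WT HSPCs, and 8 were not called, with a median log2 fold change of -0.33. With 29.4% of all genes called lower and 32.8% higher, the count of lower genes in this list was near the share over all genes. Npat, the transcriptional coactivator, was at 17.0, 25.1, 4.64 and 6.35 CPM in WT HSPCs and 28.3 to 70.2 CPM in MLL-AF9 cells, and rose by 1.73 ± 0.49 (SE; edgeR adjusted p = 0.00862). Pou2f1, which encodes OCT1, rose by 2.68 and Casp8ap2, which encodes the histone locus body protein FLASH, by 2.16. The processing scaffold Sympk changed by -1.88. Slbp was at 108, 101, 34.5 and 46.0 CPM in WT HSPCs and 22.4 to 59.8 CPM in MLL-AF9 cells, and its difference of -0.85 ± 0.41 did not pass the test (adjusted p = 0.0868). In WT HSPCs, Npat and Slbp were lower in the 2 libraries in which the histone genes were higher. Against Mir139KO HSPCs, where 31.9% of all genes were called lower and 37.3% higher, the counts were again 3 higher and 6 lower, with Npat at 2.20 ± 0.40 and Slbp at -0.71 ± 0.35 (adjusted p = 0.084). None of the 17 was called between genotypes or vectors.

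Of the 12 histone chaperone genes tested, 7 were lower and 0 higher in MLL-AF9 cells than in WT HSPCs, beside 29.4% and 32.8% of all genes. The largest changes were those of the histone importin Ipo4 (-2.51), the chromatin assembly factor subunit Chaf1a (-2.01) and Asf1b (-1.85). Of 11 genes of histone variants that are not among the replication-dependent genes taken here, 7 were lower and 2 higher, beside the same shares. H2afx, whose protein marks DNA breaks, was at 488, 440, 1238 and 1460 CPM in WT HSPCs and 34.5 to 234 CPM in MLL-AF9 cells, a change of -2.77 ± 0.60 (SE; edgeR adjusted p = 0.00171). The linker variant H1fx was at 3.85 to 12.2 CPM in WT HSPCs and at 0 to 0.0908 CPM in the cultures, with 0 in the 3 puro cultures, so its fitted change of -7.94 depends on the prior count. The macroH2A gene H2afy2 rose by 2.07. Against Mir139KO HSPCs 7 chaperone genes were lower and 2 higher, and 7 variant genes were lower and 2 higher, with H2afx at -2.96, where 31.9% of all genes were lower and 37.3% higher.

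The S phase list holds 25 genes of DNA replication, of which Cdt1, Gins2 and Tk1 are listed at 0 in all libraries. Of 22 tested, 12 were lower and 1 higher in MLL-AF9 cells than in WT HSPCs, with a median log2 fold change of -1.26, beside -3.50 for the histone genes and 0.14 for all genes, of which 29.4% were lower and 32.8% higher. The helicase subunits Mcm7 and Mcm5 changed by -2.89 and -2.82 and cyclin E1 (Ccne1) by -2.82. Of 12 genes of G2 and M phase, 5 were lower and 2 higher, with a median of -0.89, beside the same shares of all genes, and the mitotic genes Cdc20, Plk1 and Aurkb changed by -2.37, -2.29 and -1.73. Against Mir139KO HSPCs 13 S phase genes were lower and 1 higher (Pola1, the catalytic subunit of DNA polymerase alpha, at 3.03), and 5 genes of G2 and M phase were lower and 3 higher, beside 31.9% and 37.3% of all genes. The 25 S phase genes summed to 4129, 3799, 5379 and 5638 CPM in WT HSPC 1 to 4 and to 723, 2605, 2441, 540, 2258 and 568 CPM in neo 1 to 3 and puro 1 to 3. The ratio of the histone sum to the S phase sum was 5.03, 5.30, 12.1 and 13.3 in WT HSPC 1 to 4. It was 19.4, 6.90, 6.23 and 12.2 in Mir139KO HSPC 1 to 4. The HSPC libraries of high Gm26917 share thus had ratios of 12.1 to 19.4, and those of low share 5.03 to 6.90. The sums were not corrected for GC content or length, so the ratio is not a measure of histone transcripts per cell in S phase. In the cultures the ratio lay between 2.44 and 3.17, with no gap between the 3 cultures of high histone level (2.59, 2.44 and 3.17) and the others (2.75, 2.73 and 2.57).

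**Figure D4:**
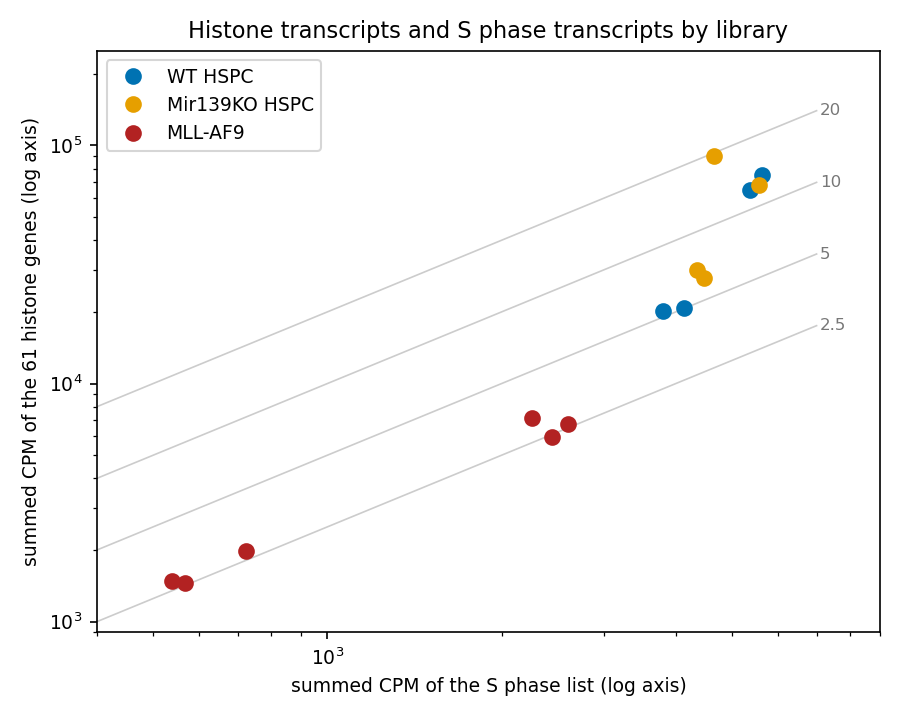
Summed CPM of the 61 histone genes against summed CPM of the 25 genes of the S phase list, both on log axes, with 1 point per library and grey lines of equal ratio labelled at their right end. The 6 MLL-AF9 cultures lay at ratios between 2.44 and 3.17. The 8 HSPC libraries lay higher, at 5.03 to 6.90 where the Gm26917 share was low and 12.1 to 19.4 where it was high.

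Hist1h4m (ENSMUSG00000069306) and Hist1h4n (ENSMUSG00000069305), H4 genes of the Hist1 cluster at 21811746 to 21812147 and 21831767 to 21832196 on chromosome 13 in GRCm38, share much sequence with other transcripts, with only 11.9% and 19.3% of their 100-base stretches unique. Reads could therefore be split between copies, and the values of either gene alone are uncertain. Hist1h4m held 26.9%, 26.6%, 4.35% and 52.5% of the counts of the pair in WT HSPC 1 to 4. It held 2.96%, 3.05%, 27.0% and 26.8% in Mir139KO HSPC 1 to 4, and 24.0% to 32.1% in the 6 MLL-AF9 cultures. The 95% Wilson intervals, which cover counting error only, were 4.14% to 4.58% in WT HSPC 3 and 52.0% to 53.0% in WT HSPC 4. Libraries of a single group thus differed by far more than counting error, and both kinds of Gm26917 share occurred among those near 27% and those near 3%. In their labels, WT HSPC 3, Mir139KO HSPC 1 and Mir139KO HSPC 2 carry numbers with the same first 4 digits. WT HSPC 1 and 2 share other first digits, as do Mir139KO HSPC 3 and 4, and WT HSPC 4 stands apart. Among HSPC libraries the share near 3% thus went with these label numbers, in both genotypes. What the numbers stand for is not stated, and their part was not tested. The CPM of the pair together was 358, 400, 1068 and 1244 in WT HSPC 1 to 4 and followed the other histone genes. The cause was not tested.

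**Figure D5:**
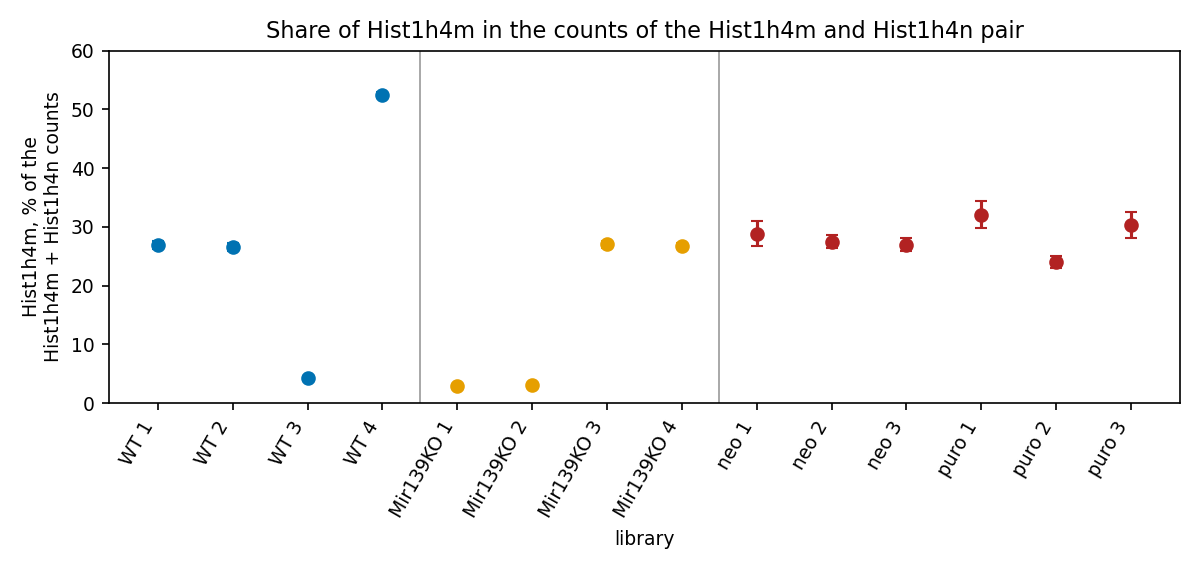
Hist1h4m as a percentage of the counts of Hist1h4m and Hist1h4n together in each library, with 95% Wilson intervals for counting error. The share lay at 24.0% to 32.1% in 10 libraries, at 2.96% to 4.35% in WT HSPC 3, Mir139KO HSPC 1 and Mir139KO HSPC 2, and at 52.5% in WT HSPC 4.

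The 9 histone genes by symbol that were not kept are Hist1h2aa, Hist1h2ba, Hist1h4b, Hist2h2aa1, Hist2h2aa2, Hist2h2bb, Hist2h3b, Hist2h3c1 and Hist3h2a. All were listed at 0 in all libraries except Hist1h2ba, whose highest count was 5. The 5 of the Hist2 cluster lie with 100% of their exonic bases in other annotated genes, so a count of 0 does not show that they were silent. Just above the threshold for depth lay Hist1h2al, with at least 10 counts in 5 samples and a highest count of 19, and Hist1h2aj, with 8 samples and a highest count of 40.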

How the data were processed

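RNA-seq counts per gene of 14 libraries were used as the authors deposited them. Per the labels and the study's methods, total RNA was depleted of ribosomal RNA (KAPA RNA HyperPrep with RiboErase), reads were aligned with STAR 2.5.3e to GRCm38 and counted with featureCounts 1.6.0, and the study used DESeq2 1.22.2. The settings for strand and for reads that map to several places are not given in the sources used here. Histone genes share sequence and lie close together, so counts may be split or dropped: 38 of the 61 genes have at least 50% of their 100-base stretches unique. A second table repeats these counts, and its 10 columns of other samples were not used.

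Symbols, lengths and coordinates came from GENCODE M21 (GRCm38). A gene needed at least 10 counts in a number of samples equal to the smaller group, and was then tested with edgeR 4.0.16 (R 4.3.3; TMM factors, robust quasi-likelihood F test), Benjamini-Hochberg adjusted over all genes and called at an adjusted p under 0.05. Depth was 35016668 to 45877994 counts a library. The standard error is the absolute log2 fold change over the square root of F. The test was checked on simulated data with known changes in genes above the median level. Of 100 genes changed by 1.5 on the log2 scale, it called 38 for MLL-AF9 cells against WT HSPCs. For Mir139KO against WT HSPCs it called 36, and for puro against neo cultures 28. Of 100 genes changed by 3 it called 94, 98 and 92, in the same order. Changes of the smaller size were thus often missed, and 0 calls do not show that genes were unchanged. The simulated sets held 15393, 14800 and 15892 genes, so a far smaller part was changed than was called for MLL-AF9 cells. The changed genes were drawn from all genes above the median level. These rates therefore do not tell how often changes in the histone genes would be called. DESeq2 1.42.0 and limma-voom (limma 3.58.1), other scalings, filters, GC and length offsets (natural splines with 5 degrees of freedom), the replicate number as a block and left-out replicates were tried.

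Genes named with statistics were, in each comparison, the 5 largest rises and falls among called histone genes, the 2 genes of each class with the highest CPM per kb, all H1 genes, genes whose sequence is printed, up to 3 called genes of each functional list, and Slbp, Npat and H2afx. Others were named after their values were seen (Hist2h2be, Hist1h2ac, Hist2h3c2, Hist1h4m, Hist1h4n, Hist1h4i and marker genes). The histone genes, lists and tests were chosen with earlier results of these data known.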

Additional observations from a re-analysis of the deposited data

Results flagged for a closer look

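Within groups of 4 or 6 libraries, a single library far from the rest (a gap to its neighbour above Dixon's 95% critical value, relative to the range of the group) was looked for in 222 sets of values, and was found in 2. Chance gives such a gap in about 1 of 20 sets. Hist1h4m was at 653 CPM in WT HSPC 4 and at 46.5 to 106 CPM in the other 3 WT HSPCs, a gap of 0.901 of the range. The H4 genes made up 26.6% of histone CPM in puro 2, the lowest of the 6 MLL-AF9 cultures, which were otherwise between 29.1% and 30.6%.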

How the results depend on the processing

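In MLL-AF9 cells 54 to 61 histone genes were called lower than in WT HSPCs, 56 to 61 lower than in Mir139KO HSPCs and 0 higher under each alternative, apart from the restriction to genes with at least 50% unique stretches, which leaves 37 genes to test in either comparison of MLL-AF9 cells and called all 37. With the GC and length offset the median log2 fold change was -1.99 against WT and -2.17 against Mir139KO HSPCs, further from the reported medians than the SD between libraries of the genes' median log2 CPM (1.19 and 1.09, averaged over the groups compared). The cause was not tested. Against WT HSPCs of low and high Gm26917 share it was -2.43 and -4.22, within that SD but outside the range over left-out replicates. Scaling by total counts alone moved the median of all genes from 0.14 to 0.69 against WT HSPCs and that of the histone genes to -2.74. Leaving out single replicates gave 60 to 61 calls and medians of -3.77 to -3.17 against WT HSPCs, and 60 calls in each and -3.98 to -3.41 against Mir139KO HSPCs. For Mir139KO against WT HSPCs it gave medians of -0.10 to 0.60 with 0 calls, and for puro against neo cultures 0 to 1 calls, the 1 without puro 2. Same-numbered samples did not deviate together in each pair (correlations of -0.58 to 0.64 for Mir139KO and WT HSPCs). The correlation was 0.64 and 0.43 where both HSPC samples had the same kind of Gm26917 share. It was -0.56 and -0.58 where the kinds differed, so this check cannot decide whether the numbers pair the samples. With the replicate number as a block the medians were -3.60, 0.31, -4.00 and -0.84 in the 4 comparisons in the order of WT, genotype, Mir139KO and vector, and the same numbers of histone genes were called (60, 0, 60 and 0). With the block and the GC offset, 59 genes were called in either comparison of MLL-AF9 cells with HSPCs. Genes with few reads, such as Hist3h2ba in the cultures, limit what depth can show. Shares of all genes called are not given here for the alternatives.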
